A study of Oryza sativa with 6 samples.

Results

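The SAPK genes of rice encode the osmotic stress and abscisic acid activated protein kinases, the rice members of the plant SnRK2 kinase family. They were chosen by name alone, as every gene whose symbol or synonym in the RefSeq gene table is SAPK and a number, with or without the prefix Os. That gave 10 genes, OsSAPK1 to OsSAPK10, out of 17905 genes that the array annotation names, and all 10 were measured, each by 1 probe set. In young inflorescences of the sro mutant OsSAPK9 was 1.68-fold as high as in wild type, OsSAPK10 was 1.29-fold and OsSAPK6 1.22-fold as high, and OsSAPK7 was 0.856-fold as high. The other 6 genes did not pass the test, and the estimated change of none of these reached 0.2 on the log2 scale.

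The arrays compare 3 inflorescence samples of sro with 3 of wild type, the Japonica variety 9522. All came from plants grown in a paddy field without special treatment and were collected at a length of 4 to 5 mm, the time when SRO expression peaks and the stamens and carpels are being laid down, per the labels. The labels give the mutant as sro only, without the allele, its origin or a rescued line, so the arrays cannot by themselves assign a difference to SRO. The comparison asks which transcripts differ between the genotypes at this time. Whole inflorescences were used, and in such bulk tissue fewer cells of a type and less RNA per cell cannot be told apart.

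Abscisic acid (ABA) is the main drought hormone of plants. When it binds its PYL/RCAR receptors, these hold back the clade A protein phosphatases 2C (PP2C), which otherwise keep SnRK2 kinases inactive. The freed kinases phosphorylate bZIP transcription factors, which switch on protective genes such as those of late embryogenesis proteins and dehydrins. In rice, all SAPK kinases respond to osmotic stress, and those of subclass III, OsSAPK8, OsSAPK9 and OsSAPK10, are activated by ABA as well. OsSAPK1 to OsSAPK3 form subclass II and OsSAPK4 to OsSAPK7 subclass I. Kinase activity is set by phosphorylation, which an array of transcripts does not measure.

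Values are log2 intensities, so a difference of 1 is a 2-fold change, and a call is a limma p under 0.05 after Benjamini-Hochberg adjustment over all 57258 probe sets. Each adjusted p below is of this kind. Levels of different probe sets depend on their probes and are not set against each other. Array medians lay between 5.26 and 5.31. Floret and inflorescence genes marked the tissue. All 13 measured genes of that list, among them OsMADS1 and OsMADS16, lay above the no-target level. That level is the mean of 10 probe sets for a fungus (4.69 in sro and 4.65 in wild type). The 13 include genes on chromosomes 1 and 7 that both carry the name MADS2. Of these 13 genes, 5 were called higher and 1 lower in sro, beside 22.7% of all probe sets above that level. The 1 lower was LAX1, at 7.32 ± 0.10 in sro and 9.30 ± 0.90 in wild type (SD, n = 3 each). Summed levels, which LAX1 lowers in sro, were 133.6 to 134.7 in sro arrays and 134.2 to 135.3 in wild-type arrays. Their closeness is thus not read as equal tissue. Of 3 measured green tissue genes, the Rubisco small subunit gene RBCS1 lay below the no-target level. The brightest of 4 probe sets of the other, OsrbcS, was at 9.91 ± 0.10 in sro and 9.73 ± 0.15 in wild type (SD, n = 3 each) and none of the 4 was called. CAB2R, a chlorophyll-binding protein gene, was called lower, at 7.24 ± 0.14 in sro and 8.51 ± 0.04 in wild type (SD, n = 3 each). Of the late anther and tapetum genes, 3 of 4 measured were called higher in sro, beside 8.24% of probe sets above the no-target level. RTS rose at least 10.1-fold, C6 at least 19.4-fold and OsRAFTIN1 2.53-fold. C4 was not called and ran from 5.79 to 8.61 across wild-type arrays. Summed levels of the 4 genes were 33.0 to 33.3 in sro arrays and 20.1 to 23.5 in wild-type arrays. The part of these marker genes in the SAPK results was not tested. A labelling control, the 5 prime end of the dap spike, was high in sro replicates 1 (10.3) and 3 (9.48) but 7.95 in sro replicate 2, against 7.55 to 7.77 in wild type. The 3 prime minus 5 prime difference of GAPDH, a sign of RNA and labelling quality in the sample itself, was 1.29, 1.63 and 1.37 in sro replicates 1, 2 and 3, against 1.64, 1.66 and 1.65 in wild-type replicates. The genotypes did not overlap in it (two-sided exact permutation p = 0.1, the smallest possible), sro replicates 1 and 3 again stood apart, and its part in the SAPK results was not tested.

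Of the 10 SAPK genes, 3 were called higher, 1 lower and 6 were not called. Over all probe sets, 14.6% were called, 5.59% higher and 9.04% lower. All 10 SAPK probe sets lay above the no-target level, with single values between 6.92 and 11.3. Among the 34120 probe sets above that level, 22.7% were called, 8.24% higher and 14.5% lower. With 1 probe set per gene and the adjustment made over these alone, 38% of genes were called and 5 of 10 SAPK genes, so the share of SAPK genes called was near that of genes at large and does not set the family apart. The median SAPK change was 0.06, beside 0.00 for all probe sets above the no-target level. It was -0.044 for all probe sets that name 1 gene and -0.055 with 1 probe set per gene, dim ones included. The count of 4 fell to 2 without sro replicate 1 and likewise without sro replicate 3, and OsSAPK9 and OsSAPK10 were the genes called in each case.

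Values of the 2 genotypes did not overlap for 7 of the 10 SAPK genes, where 34.6% of all probe sets and 47.3% of those above the no-target level did not overlap. The 7 were OsSAPK1, OsSAPK4, OsSAPK5, OsSAPK6, OsSAPK7, OsSAPK9 and OsSAPK10. Replicates lay close together, with group SDs between 0.0068 and 0.15, and OsSAPK1, OsSAPK4 and OsSAPK5 were separated without passing the test.

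**Figure D1:**
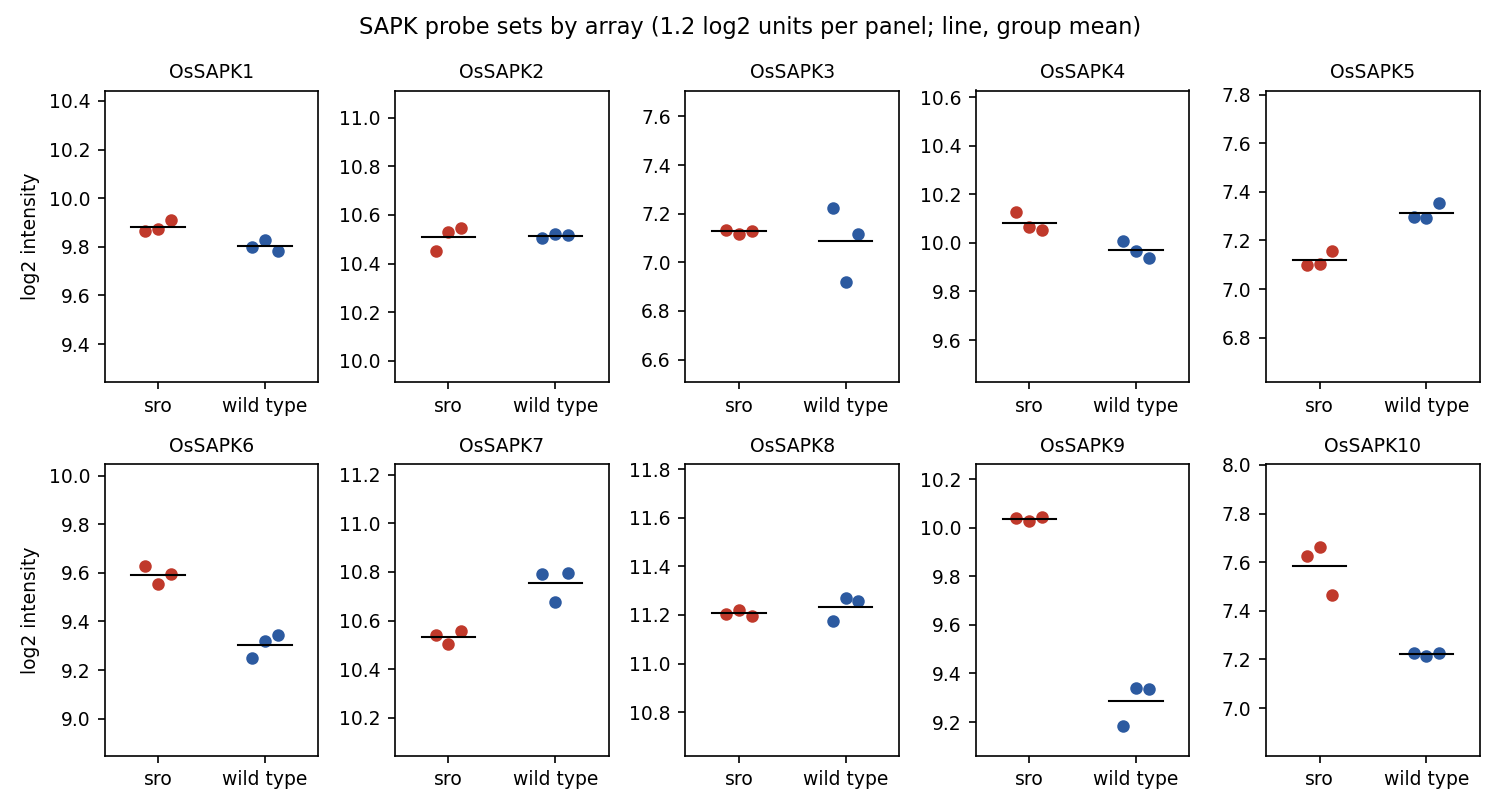
Log2 intensity of each SAPK probe set in the 3 sro arrays (left, red) and the 3 wild-type arrays (right, blue); each panel spans 1.2 log2 units and the line is the group mean. OsSAPK9 shows the widest gap between the groups, 0.69 between the lowest sro and the highest wild-type array, while the groups of OsSAPK2, OsSAPK3 and OsSAPK8 overlap.

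Subclass III held the largest rise of the family and also a gene with almost no change. OsSAPK9 (LOC4352660, chromosome 12), a kinase linked to drought tolerance in rice, had log2 intensities of 10.04, 10.03 and 10.04 in sro replicates 1, 2 and 3, against 9.19, 9.34 and 9.34 in wild-type replicates 1, 2 and 3. All sro arrays were thus above all wild-type arrays, and the sro arrays were nearly identical. The change was 0.75 (SE 0.06, 95% interval 0.60 to 0.90, adjusted p = 0.000423). It was larger in size than the change of 98.0% of all probe sets, dim ones included, although it stayed under 2-fold. The median size of change was 0.11 over all probe sets and 0.14 over those above the no-target level. The call held in every setting run, including each omission of 1 array (0.70 to 0.77), and the change was 0.74 with sro replicate 2, the array closest to wild type in dap and GAPDH, as the only sro array (adjusted p = 0.0456). The probe set of OsSAPK9 is the 1 of 10 whose name ends in _s_at, which Affymetrix gives to probes shared with other transcripts, and the share of other transcripts in its signal was not tested.

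OsSAPK10 (LOC4333435, chromosome 3), a kinase known to phosphorylate bZIP factors, had 7.63, 7.66 and 7.47 in sro replicates 1, 2 and 3, against 7.23, 7.22 and 7.23 in wild-type replicates. The groups were 0.24 apart at their nearest, and sro replicate 3 was the lowest of the sro arrays. OsSAPK10 rose by 0.36 (SE 0.07, 95% interval 0.20 to 0.52, adjusted p = 0.011) and stayed called whichever array was left out (0.32 to 0.42).

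OsSAPK8 (LOC4334218, chromosome 3), which together with OsSAPK9 and OsSAPK10 phosphorylates the bZIP factor TRAB1, had 11.20, 11.22 and 11.20 in sro and 11.18, 11.27 and 11.26 in wild type. The groups overlapped, and the change of -0.03 (SE 0.06, adjusted p = 0.802) had a 95% interval of -0.16 to 0.11. That interval holds neither the change of OsSAPK9 nor that of OsSAPK10.

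Subclass I moved in both directions. OsSAPK6 (LOC4329630, chromosome 2), which acts on the ABA-linked factor bZIP46, had 9.63, 9.56 and 9.59 in sro replicates 1, 2 and 3, against 9.25, 9.32 and 9.34 in wild-type replicates. Its groups did not overlap, and OsSAPK6 rose by 0.29 (SE 0.06, 95% interval 0.15 to 0.42, adjusted p = 0.0147). When sro replicate 1 was omitted the call was lost at a change of 0.27 (adjusted p = 0.0572), and when sro replicate 3 was omitted it was lost at 0.29 (adjusted p = 0.0638).

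OsSAPK7 (LOC4335877, chromosome 4) had 10.54, 10.50 and 10.56 in sro, against 10.79, 10.68 and 10.80 in wild type. All sro arrays were below all wild-type arrays, and OsSAPK7 fell by 0.22 on the log2 scale (SE 0.06, 95% interval -0.36 to -0.08, adjusted p = 0.0456). This call lay close to the threshold. Of the 6 omissions of 1 array it survived only that of wild-type replicate 2, and in the other 5 the change was -0.24 to -0.20 with an adjusted p between 0.111 and 0.127. Quantile normalization (adjusted p = 0.0551) and a linear model without moderation (adjusted p = 0.0591) lost the call too.

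OsSAPK5 (LOC4337502, chromosome 4) had 7.10, 7.10 and 7.16 in sro, against 7.30, 7.29 and 7.35 in wild type. The groups did not overlap, but its change of -0.19 (SE 0.06, 95% interval -0.33 to -0.06) narrowly missed the threshold (adjusted p = 0.056). It passed where fewer probe sets were tested, with dim probe sets left out (adjusted p = 0.024) or 1 probe set per gene (adjusted p = 0.0124), and in the unmoderated model (adjusted p = 0.033). With quantile normalization its change was -0.12 (adjusted p = 0.169).

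OsSAPK4 (LOC4324934, chromosome 1), whose overexpression raises salt tolerance in rice, had 10.13, 10.07 and 10.05 in sro and 10.01, 9.97 and 9.94 in wild type. The sro arrays were all higher, by as little as 0.048 at the nearest, and the change of 0.11 (SE 0.06, adjusted p = 0.241) did not pass the test. Within subclass I the 95% intervals of OsSAPK4 and OsSAPK6 thus had positive centres and those of OsSAPK5 and OsSAPK7 negative ones, and the interval of OsSAPK6 overlapped neither that of OsSAPK5 nor that of OsSAPK7. The difference between these genes was not tested.

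None of the subclass II genes was called. OsSAPK2 (LOC4343944, chromosome 7), needed for normal ABA response and drought tolerance in rice, had 10.45, 10.53 and 10.54 in sro and 10.51, 10.52 and 10.52 in wild type. Its change was -0.01 (SE 0.06, 95% interval -0.14 to 0.13, adjusted p = 0.956), and its sign turned with quantile normalization (0.02), so it has no direction.

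OsSAPK1 (LOC4333017, chromosome 3), which acts with OsSAPK2 in salt tolerance, had 9.87, 9.87 and 9.91 in sro and 9.80, 9.83 and 9.78 in wild type. The groups just failed to overlap, and the change was 0.08 (SE 0.05, 95% interval -0.05 to 0.21, adjusted p = 0.395). OsSAPK3 (LOC4349411, chromosome 10) had 7.13, 7.12 and 7.13 in sro and 7.22, 6.92 and 7.12 in wild type, where replicate 2 was low. Its change was 0.04 (SE 0.08, adjusted p = 0.786), and its sign turned without wild-type replicate 2 (-0.04).

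**Figure D2:**
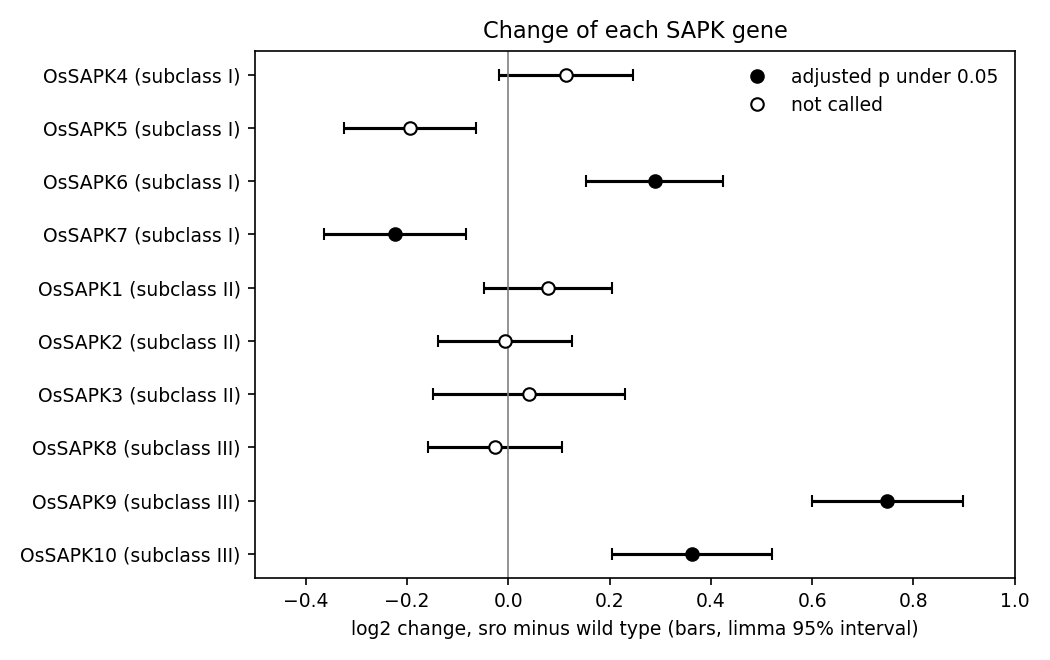
Log2 change of each SAPK gene, sro minus wild type, grouped by subclass, with limma 95% intervals; filled points passed an adjusted p of 0.05. OsSAPK9 (0.75), OsSAPK10 (0.36) and OsSAPK6 (0.29) lie to the right of 0 and OsSAPK7 (-0.22) to the left.

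Whether OsSAPK9 differed from its relatives was tested on the difference of the 2 probe sets within each array. The change of OsSAPK9 exceeded that of each of the other 9 genes, by 0.39 for OsSAPK10, 0.46 for OsSAPK6, 0.77 for OsSAPK8 and up to 0.97 for OsSAPK7. For OsSAPK10, the nearest, the difference between the probe sets was 2.45 ± 0.11 in sro and 2.06 ± 0.09 in wild type (SD, n = 3 arrays each). Each of the 9 comparisons gave a two-sided exact permutation p of 0.1, the smallest that 3 against 3 arrays allow, and 0.1 after Benjamini-Hochberg adjustment, so this test could not reach 0.05. All 9 differences kept their sign whichever array was left out.

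The genes around the kinases were read from lists of symbols. Each count below stands beside the share of single probe sets called, 14.6% of all and 22.7% of those above the no-target level. A list gene with several probe sets was counted by the one with the smallest p. Such a gene had more chances to be called than a single probe set, so the counts and these shares differ in kind. Only 1 gene carried a listed ABA receptor name (PYL, PYR or RCAR and a number) in the gene table, OsPYL11. Any receptor gene without such a name was not read. OsPYL11 had 11.83, 11.80 and 11.77 in sro, against 11.52, 11.48 and 11.54 in wild type. It rose by 0.28 (SE 0.06, adjusted p = 0.0134). That call was lost without sro replicate 1.

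Of 7 measured clade A PP2C genes, whose products hold SnRK2 kinases inactive, 3 rose, 1 fell and 3 were not called. With so few genes, nothing is read from this count against the 22.7% of probe sets above the no-target level that were called. OsPP2C51 had 6.89, 6.93 and 6.84 in sro, against 5.89, 6.11 and 5.89 in wild type, and rose by 0.93 (SE 0.08, adjusted p = 0.000344). Its second probe set, which lies below the no-target level, had a change of 0.20 (adjusted p = 0.454). PP2C68 rose by 0.80 (SE 0.10) and OsPP2C30 by 0.51 (SE 0.07), and in each of these 3 genes all sro arrays were above all wild-type arrays. OsPP2C06, also named ABIL1, fell by 0.36 (SE 0.08, adjusted p = 0.0207). OsPP2C08 (0.01), OsPP2C09 (-0.05) and PP2C53 (-0.12) were not called. The median of the 7 was 0.01.

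Among all 55 measured genes named PP2C, most of which lie outside clade A, 10 rose, 9 fell and 36 were not called, with a median change of -0.02. With 1 probe set per gene, 22 of the 55 were called, beside 38% of all genes. Beside OsPP2C51 and PP2C68, the smallest p-values belonged to OsPP2C01, which fell at least 3.18-fold (4.50 ± 0.03 in sro and 6.36 ± 0.11 in wild type, SD, n = 3), OsPP2C29 (1.14) and OsPP2C62 (0.63). The 19 calls became 11 without wild-type replicate 3, and 10, 12 and 8 without sro replicates 1, 2 and 3.

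Only 2 genes carried a listed ABA-linked bZIP name in the gene table, and any other such factor was not read. Both encode substrates of SAPK kinases and were not called. TRAB1 had a change of 0.14 (SE 0.06, adjusted p = 0.145) and bZIP23, listed as ABF2, of 0.17 (SE 0.06, adjusted p = 0.101). limma's unadjusted p was under 0.05 for both, and both were called with a variance trend and with 1 probe set per gene.

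Of 4 measured genes in the list of ABA synthesis and breakdown, 1 was called. ABA8OX2, which encodes a hydroxylase that breaks ABA down, rose by 0.23 (SE 0.06, adjusted p = 0.035), and the call held without wild-type replicate 1 and was lost without any one of the other 5 arrays. The name of the ABA8OX2 probe set ends in _s_at, and the share of other transcripts in its signal was not tested. ABA8OX1 had 8.58, 8.72 and 8.62 in sro, against 7.71, 9.72 and 9.24 in wild type, a change of -0.25 (adjusted p = 0.748). The list also takes in TRAB1 through its older synonym aba1, and the epoxidase gene ABA1 was at -0.11 (adjusted p = 0.499).

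Of 8 measured late embryogenesis and dehydrin genes, 1 rose and 7 were not called, with a median change of 0.15. EM, a late embryogenesis protein gene, had 11.73, 11.79 and 11.79 in sro, against 10.97, 11.12 and 11.01 in wild type, and rose by 0.74 (SE 0.06, adjusted p = 0.00041). EM thus changed by about as much as OsSAPK9. Without wild-type replicate 1 the list had 3 called genes.

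Others of these target genes differed widely among wild-type arrays. RAB16B had 12.45, 12.43 and 12.47 in sro, against 11.62, 12.75 and 12.39 in wild type. LEA19, whose probe set name also ends in _s_at, had 8.20, 8.28 and 8.23 in sro, against 8.28, 9.74 and 9.27 in wild type. In both genes wild-type replicate 1 was the lowest wild-type array, as it was in rab25 (7.63, against 9.12 and 8.58). ABA8OX1 was lowest in that array too, but not every gene of these lists was. In 3 of the 8 genes the wild-type SD was over 0.5 (RAB16B, LEA19 and rab25), while the highest sro SD was 0.044. OsSAPK9 was lowest in wild-type replicate 1 as well, but its wild-type SD was 0.089.

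**Figure D3:**
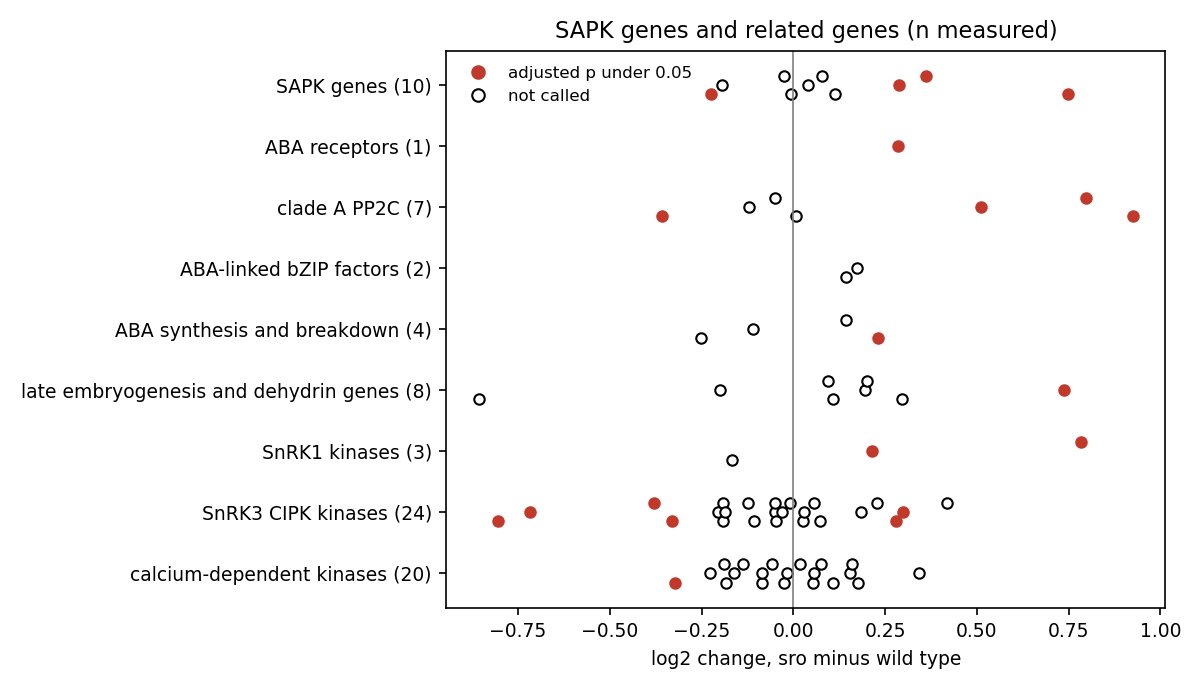
Log2 change, sro minus wild type, of each measured gene in the SAPK family, the ABA pathway lists and 3 related kinase families; filled red points passed an adjusted p of 0.05 and the number of measured genes is in brackets. OsSAPK9 (0.75), EM (0.74) and OsPP2C51 (0.93) stand to the right, while the calcium-dependent kinases gather around 0 with 1 called gene.

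Related kinase families were counted in the same way, but 4 of 24 CIPK and 6 of 20 calcium-dependent kinase genes had all their probe sets below the no-target level in both genotypes, while no SAPK gene did, so their counts are not set against those of the SAPK genes. Of 24 measured CIPK genes, which encode the SnRK3 kinases that work with calcineurin B-like calcium sensors, 2 rose, 4 fell and 18 were not called, with a median of -0.02. CIPK2 fell by 0.81 (SE 0.08), CIPK6 by 0.72 (SE 0.11) and CIPK18 by 0.38 (SE 0.08), whereas CIPK24 rose by 0.30 and CIPK17 by 0.28. The other CIPK2 probe sets had changes of -0.31 (adjusted p = 0.0496) and 0.04 (adjusted p = 0.765). The 6 calls became 3 without wild-type replicate 3 or without any single sro array.

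Of 20 measured calcium-dependent kinase genes 1 was called, CPK1, which fell by 0.32 (SE 0.06, adjusted p = 0.00742). That count was 2 without wild-type replicate 1 or 2.

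Of 3 measured SnRK1 genes, which encode energy-sensing kinases, OSK3 (0.78, SE 0.19) and OSK24 (0.22, SE 0.06) rose and OSK1 was not called (-0.17). The OSK3 and OSK24 probe sets with these values have names ending in _x_at, given to probes that may bind unrelated transcripts, and both calls were lost without wild-type replicate 1, wild-type replicate 3 or sro replicate 3. Other probe sets of these genes gave smaller changes, 0.23 and 0.15 for OSK3 and 0.20 and 0.16 for OSK24, and the second probe set of OSK1 had a change of the other sign (0.27, adjusted p = 0.205). Without sro replicate 1 the list had 1 call.

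Among 82 genes whose RefSeq symbol is not a locus number, the 5 whose probe sets followed OsSAPK9 most closely over the 6 arrays were PP2C68 (Pearson r 0.989), MYBS2 (0.986), HCT1 (0.982), the mitochondrial cob (0.970) and HIRL1 (0.969). The 6 arrays share the split by genotype, which alone gives a high r to a gene with a clear change. Changes of the 5 were 0.80, 0.32, 0.36, 0.64 and 0.11, and HIRL1 was not called (adjusted p = 0.253). PP2C68 encodes a clade A phosphatase, of the group that holds SnRK2 kinases inactive.

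**Figure D4:**
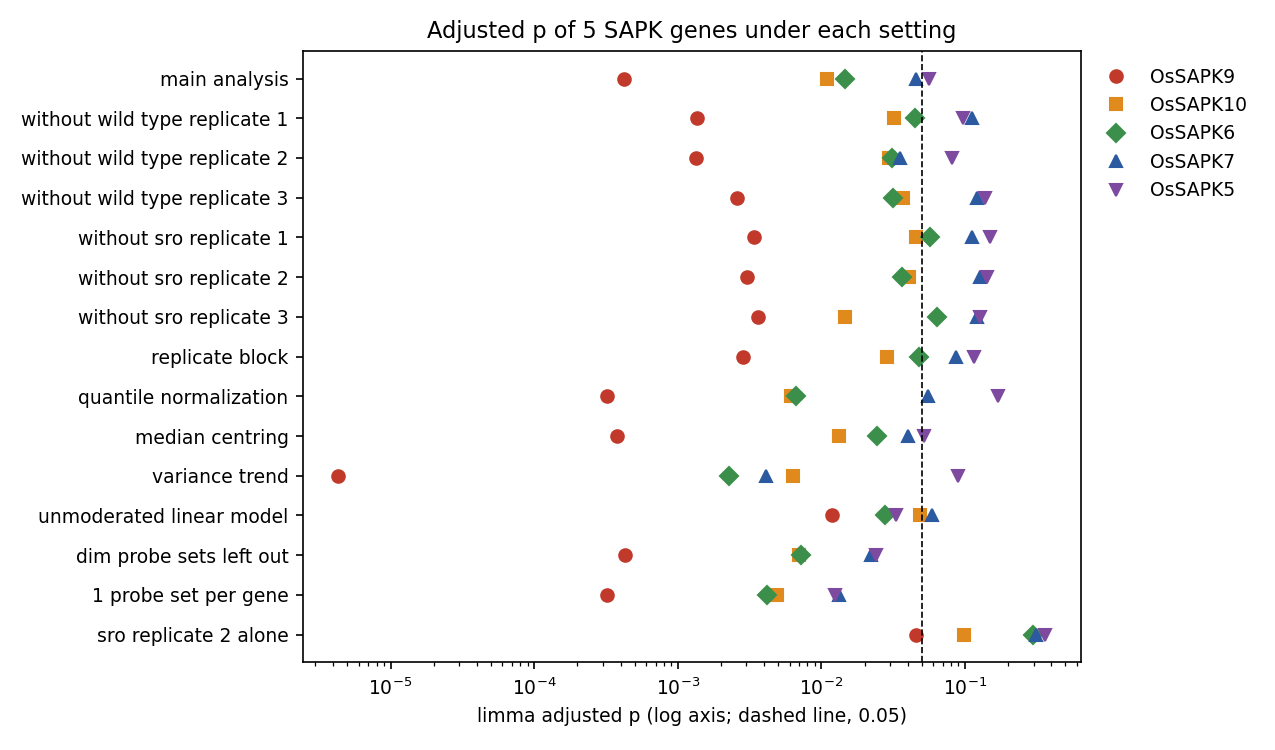
Adjusted p on a log axis for 5 SAPK genes in the main analysis and under each other setting, with the threshold of 0.05 dashed. OsSAPK9 lies left of the line in every setting and OsSAPK10 in all but the one with sro replicate 2 alone. OsSAPK6, OsSAPK7 and OsSAPK5 lie on both sides of it.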

How the data were processed

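Biotin-labelled cRNA, made from 500 ng of total RNA of each of 3 sro and 3 wild-type samples, was measured on Affymetrix rice arrays, per the labels' protocols. Each deposited column holds 1 array's log2 intensities by probe set. The submitters' processing notes name RMA, which normalizes arrays to one another, and Partek, with no version given. The log2 scale was inferred from the values. Detection calls are not given in the sources used, and precision is limited by the number of arrays.

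Values were used as deposited. The 123 AFFX control probe sets were left out, and 57258 were tested with limma 3.58.1 (lmFit and eBayes, no covariates, two-sided) in R 4.3.3. The test was checked on simulated data. Python 3.11.15, pandas 2.3.3 and matplotlib 3.10.9 made tables and figures. Of the probe sets, 22436 have 1 gene in GEO's platform annotation and 95 have several and were not named. Gene numbers were looked up in RefSeq ASM3414082v1, used for names and chromosomes only. For a gene with several probe sets the one with the smallest p is given, and list medians use the brightest. A fold is given as "at least" where the dimmer group's mean was under the no-target level, and each dimmer array below that level was then raised to it.

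All SAPK genes are named, with up to 5 called genes per list of smallest p. The 5 genes most like OsSAPK9 were sought only among the 82 whose symbol is not a locus number, of 17905 measured. OsPP2C08, OsPP2C09, PP2C53, ABA8OX1, the bZIP genes, RAB16B, LEA19, rab25, OSK1 and C4 were added after their values were seen. The members and lists were chosen with earlier results of these data known. Nothing says whether replicates with the same number were handled together, and they were not treated as pairs.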

Additional observations from a re-analysis of the deposited data

How the results depend on the processing

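OsSAPK9 and OsSAPK10 were called in every setting planned. The direction of each SAPK gene except OsSAPK2 and OsSAPK3 held in all. That includes OsSAPK1, OsSAPK4 and OsSAPK8, which were not called in any setting, so a stable direction does not mark the called genes. Leaving out 1 array gave 2 to 4 called SAPK genes, changes of 0.26 to 0.31 for OsSAPK6 and -0.26 to -0.20 for OsSAPK7. OsSAPK7 was not called with quantile normalization (-0.21) or in the unmoderated model (-0.22). OsSAPK5 (-0.19 in each) passed in the unmoderated model, with dim probe sets left out and with 1 probe set per gene. The sign turned for OsSAPK2 with quantile normalization (0.0157) and over the omissions of 1 array (-0.0246 to 0.0216), and for OsSAPK3 over the omissions (-0.0422 to 0.109). With sro replicate 2 as the only sro array, a setting chosen after seeing the data in which that array is assumed to vary like the wild type, 1 SAPK gene was called, OsSAPK9. OsSAPK10 (0.44), OsSAPK6 (0.25) and OsSAPK7 (-0.25) were not, and OsSAPK2 was at 0.0135.

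Called genes when 1 array was left out numbered 0 to 1 for ABA receptors, 8 to 20 for all PP2C, 0 to 1 for ABA synthesis and breakdown, 1 to 3 for late embryogenesis, 0 to 2 for SnRK1, 3 to 7 for CIPK and 1 to 2 for calcium-dependent kinases. A variance trend gave 2 bZIP, 2 synthesis and breakdown, 3 late embryogenesis and 7 calcium-dependent kinase genes, and 1 probe set per gene gave 2, 2, 3 and 7 of these. With dim probe sets left out, late embryogenesis had 3 and calcium-dependent kinases 5. The unmoderated model gave 10 PP2C, 2 late embryogenesis, 2 CIPK and 2 calcium-dependent kinase genes, and quantile normalization 3 late embryogenesis and 2 calcium-dependent kinase genes. Median centring gave 0 synthesis and breakdown genes and 1 SnRK1 gene. With sro replicate 2 alone there were 0 ABA receptor, 1 clade A PP2C, 3 PP2C, 0 synthesis and breakdown, 0 SnRK1, 0 CIPK and 0 calcium-dependent kinase genes. The cause of these moves was not tested. Deviations of same-numbered arrays from their group means correlated at -0.028 to -0.0037, and no sro array correlated best with the wild-type array of its own number. With the replicate number as a block, no pairing being stated, 3 SAPK genes were called, without OsSAPK7 (-0.22, adjusted p = 0.0869), and the block gave 0 synthesis and breakdown, 1 SnRK1 and 2 calcium-dependent kinase genes, and 6315 called probe sets in place of 8377.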

Other observations

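Each SAPK gene was set beside the nearest measured gene before and after it in RefSeq order, a comparison chosen after the SAPK values were seen. Of these 20 neighbours, 3 were called higher and 1 lower in sro. That share is near the 14.6% of all probe sets and 22.7% of those above the no-target level that were called. Some neighbours lay below that level. Among them was LOC4337500 before OsSAPK5, called higher at 3.96 in sro and 3.67 in wild type (adjusted p = 0.022). The neighbours of OsSAPK9 on chromosome 12 were LOC4352659, with a change of 0.26 (SE 0.08, adjusted p = 0.0708), and ACA10, with a change of 0.00 (SE 0.06, adjusted p = 0.974). The neighbour before OsSAPK8, LOC4334216, had a change of 0.70 (SE 0.08, adjusted p = 0.00129), and the one before OsSAPK3, LOC4349410, of 0.95 (SE 0.16, adjusted p = 0.00715), whereas OsSAPK8 and OsSAPK3 themselves were not called.

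Of 7 measured seed storage genes, a class used to mark seed tissue, 0 were called by limma, 1 had an unadjusted p under 0.05, and 4 lay below the no-target level in sro and in wild type.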
